A study of Mus musculus with 26 samples.

Results

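The choroid plexus and ciliated cell miRNAs described here are 5 precursor entries of the small RNA count table, mmu-mir-204, mmu-mir-211, mmu-mir-1298, mmu-mir-448 and mmu-mir-449a. They were taken by name from the entries annotated in miRBase, and all 5 were found among 1054 miRNA entries of 1360 small RNA entries. Each was read in 26 libraries of mouse hippocampus. The mice were C57BL/6J males aged 2 to 3 months that either stayed in the home cage (CTRL) or swam for 6 min in water of 18 °C (Swim). Tissue of both hemispheres was collected 45 min after the swim began and divided into dorsal (dHC) and ventral (vHC) hippocampus. There were 8 libraries of vHC CTRL, 6 of vHC Swim, 6 of dHC CTRL and 6 of dHC Swim. The labels name no transgene, deletion or drug for any group.

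The libraries were processed in 3 blocks that are dated in the labels, and each block held all 4 groups. Library totals over miRNA entries ranged from 465387 to 4819724, the lowest in dHC CTRL library 24. The labels do not say whether a dHC and a vHC library came from the same mouse, so the p-values below measure the spread between these libraries. Levels are given as CPM, the count of an entry relative to the library's miRNA total after TMM scaling. In whole tissue, fewer cells of a type and less RNA per cell cannot be told apart.

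The choroid plexus is a sheet of epithelial cells that hangs into the brain ventricles and makes cerebrospinal fluid, and ciliated ependymal cells line the ventricle wall next to it. Both lie against the hippocampus and are not part of it. A miRNA is cut from a hairpin in a longer transcript, often an intron of a protein-coding gene, and then recognises target mRNAs mainly through its seed, bases 2 to 8 of the mature strand. The serotonin receptor gene Htr2c, which carries several miRNAs in its introns, is known for strong expression in choroid plexus epithelium and is also expressed in neurons. The miRNAs mir-34b, mir-34c and mir-449a are known for their part in making motile cilia.

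The mature strands are printed because they show which members can be told apart by sequencing and which share a seed. They come from RefSeq on GRCm38.p6, where all 5 members were matched, and the seed is in capitals. The table gives 1 value per precursor, so it does not say which strand of a hairpin was counted.
mmu-miR-204-5p: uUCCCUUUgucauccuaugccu
mmu-miR-211-5p: uUCCCUUUgucauccuuugccu
mmu-miR-1298-5p: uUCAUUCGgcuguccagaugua
mmu-miR-448-3p: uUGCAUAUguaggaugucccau
mmu-miR-449a-5p: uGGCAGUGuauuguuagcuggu
mmu-miR-34b-5p: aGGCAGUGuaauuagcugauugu
The 5p strands of mir-204 and mir-211 have the same seed and differ by 1 base of 22, A17U, counted from the 5′ end of the mir-204 strand. The seed of mir-449a is shared with the 5p strands of mir-34a and mir-34b. For mir-34c no 5p strand was among the sequences obtained, so its 5p seed was not compared. The other seeds are each found in 1 member.

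The members lie in introns of 4 genes, each on the strand of its host, by the GENCODE annotation of GRCm38. The mir-204 hairpin is at chr19:22750605-22750672 in Trpm3, an ion channel gene. The mir-211 hairpin is at chr7:64205806-64205911 in Trpm1, a related channel gene known from melanocytes and retina. Both mir-1298, at chrX:147064905-147065002, and mir-448, at chrX:147158210-147158321, lie in Htr2c, where mir-764, mir-1912 and mir-1264 are also found, upstream of them. The mir-449a hairpin is at chr13:113037534-113037624 in Cdc20b, a gene known from multiciliated cells.

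Among the members, 4 varied more between dHC libraries than between vHC libraries. The level of mir-204 in vHC CTRL was between 1175 and 1657 CPM with a median of 1422. In vHC Swim it was between 1257 and 1628 with a median of 1389. In dHC CTRL it was between 1420 and 3326 with a median of 1644, and in dHC Swim between 924 and 2461 with a median of 1860. The dHC libraries reached higher, but the groups overlapped, since 6 of the 12 dHC libraries exceeded every vHC library and 1 lay below all of them.

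The level of mir-211 followed that of its seed partner mir-204, at a median of 0.487 times as much. It was between 548 and 832 CPM in vHC CTRL (median 689), 607 and 786 in vHC Swim (median 637), 696 and 1565 in dHC CTRL (median 864) and 554 and 1171 in dHC Swim (median 900). The same 6 dHC libraries as for mir-204 stood above all vHC libraries. The ratio of mir-211 to mir-204 was between 0.414 and 0.600 over the 26 libraries, with medians of 0.483 in vHC and 0.489 in dHC. In 13 libraries both counts were not whole numbers, and their fractional parts were equal in 26 of 26 libraries, so some reads had been divided between these entries and their separate levels are uncertain.

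The widest differences between libraries were those of the Htr2c miRNAs. The level of mir-1298 was between 171 and 359 CPM in vHC CTRL (median 286) and between 219 and 345 in vHC Swim (median 294). In dHC CTRL it was between 124 and 1601 (median 224), and in dHC Swim between 130 and 726 (median 375). Each dHC group fell into libraries above every vHC library and libraries below the vHC median. Of all 12 dHC libraries 5 were above and 7 below, but only 3 lay below every vHC library. In dHC CTRL, libraries 8 and 14 held 1195 and 1601 CPM, and the other 4 held 124, 138, 216 and 231. In dHC Swim, libraries 16, 22 and 28 held 518, 623 and 726 CPM, and the other 3 held 130, 228 and 231. No dHC library lay between 231 and 518 CPM, and the vHC median was 289.

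The same 5 dHC libraries were the highest for mir-448. Its level was between 60.3 and 96.8 CPM in vHC CTRL (median 77.1) and between 66.3 and 127 in vHC Swim (median 78.0). In dHC CTRL, libraries 8 and 14 held 367 and 552 CPM, while the other 4 held between 22.9 and 47.0. In dHC Swim, libraries 16, 22 and 28 held 154, 102 and 128 CPM, while the other 3 held between 39.3 and 50.6. Thus 4 dHC libraries were above every vHC library and 7 were below every vHC library, with 1 inside. The highest dHC library held 24.1 times as much mir-448 as the lowest, against 2.11 times in vHC. For mir-1298 these ratios were 12.9 and 2.09, for mir-204 3.60 and 1.41, and for mir-211 2.82 and 1.52.

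The 5 libraries came from both stress groups and from all blocks, 3 from block 1, 1 from block 2 and 1 from block 3. In them mir-204 lay between 2100 and 3326 CPM, against 924 to 1767 in the other 7 dHC libraries. For mir-211 these ranges were 990 to 1565 and 554 to 919. None of these ranges overlapped, although the libraries had been chosen for mir-1298. Since they were chosen from the values, the split is a description and was not tested.

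The least abundant member, mir-449a, did not follow this split. Its level was between 3.99 and 5.88 CPM in vHC CTRL (median 5.27), 2.67 and 7.06 in vHC Swim (median 4.41), 5.09 and 12.7 in dHC CTRL (median 6.85) and 5.89 and 12.3 in dHC Swim (median 7.28). The dHC groups were shifted upwards as a whole, with all 12 dHC libraries above the vHC median, 5 of them above every vHC library and 0 below every vHC library. Those 5 were libraries 18, 24, 20, 28 and 30, and only library 28 was also among the 5 with high mir-1298. These levels rest on 3 to 55 counts per library, the 3 counts being those of library 24, so counting error is large for each single value.

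**Figure D1:**
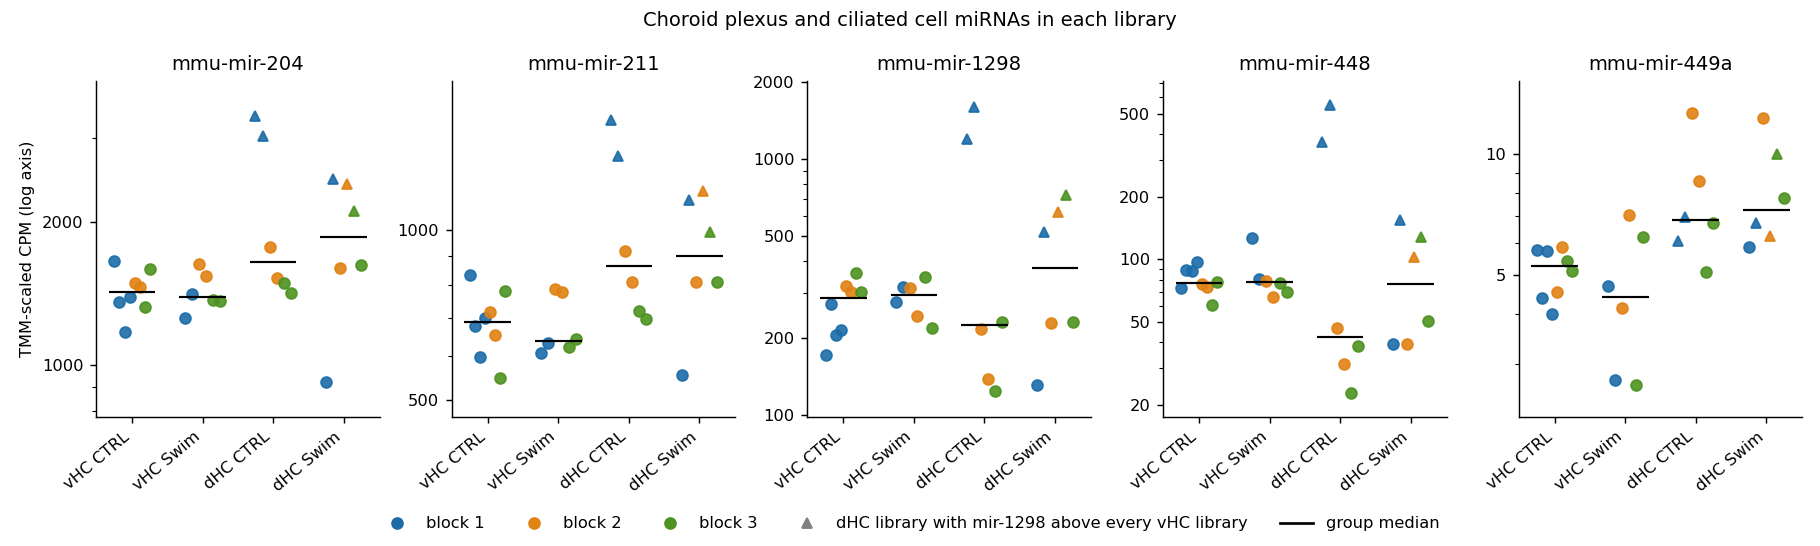
TMM-scaled CPM of each member on log axes, 1 point per library, in the 4 groups, coloured by block, with a line at each group median. Triangles mark the 5 dHC libraries with mir-1298 above every vHC library: they are also the top 5 for mir-204, mir-211 and mir-448 in dHC, but not for mir-449a.

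The next question was which members differed between the regions. Over both stress groups, with block in the model, mir-449a, mir-211 and mir-204 were higher in dHC and mir-1298 and mir-448 did not pass the test. The log2 difference (dHC minus vHC, 12 against 14 libraries) was 0.73 for mir-449a (SE 0.15, adjusted p = 0.000245 in the quasi-likelihood test of edgeR, adjusted by Benjamini and Hochberg's method over 463 tested entries). It was 0.49 for mir-211 (SE 0.12, edgeR adjusted p = 0.00161) and 0.46 for mir-204 (SE 0.14, edgeR adjusted p = 0.00881). For mir-1298 the value was 0.76 with an SE of 0.32 and a 95% interval from 0.10 to 1.42 (edgeR adjusted p = 0.0644), and for mir-448 it was 0.46 with an SE of 0.31 and an interval from -0.19 to 1.10 (edgeR adjusted p = 0.259). Differences between regions were common in these libraries: 36.1% of all tested entries passed in either direction and 17.5% were higher in dHC, against 3 of the 5 members, all of them higher. The median difference was 0.49 over the members and 0.0029 over all tested entries. Since reads were divided between mir-204 and mir-211, the number of members called and this median are not of independent entries. The call of mir-1298 depended on the scaling, since it passed under DESeq2 size factors (0.80, edgeR adjusted p = 0.0488) and under TMMwsp scaling (0.79, 0.0480). With 2 surrogate variables in place of block, of which the second had 91.1% of its variance between regions, none of the 5 members passed, and the value of mir-449a was -0.32.

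Over both stress groups, the differences within blocks were unequal for 4 members. For mir-1298 the difference of mean log2 CPM was 1.26 in the libraries of block 1, where it was highest, against -0.20 for block 2 and -0.19 for block 3, and for mir-448 it was 0.999, -0.57 and -0.53. In CTRL mice the difference of mir-1298 was 2.70 in block 1, which held libraries 8 and 14, and -0.84 and -0.96 in the others. In Swim mice it went the other way, with -0.19 in block 1 and 0.45 and 0.58 in blocks 2 and 3. The values of mir-448 were 2.38, -0.95 and -1.20 in CTRL and -0.38, -0.18 and 0.13 in Swim mice. For mir-204 the differences were 0.69, 0.23 and 0.22, and for mir-211 they were 0.71, 0.33 and 0.31. For mir-449a they were 0.55, 0.80 and 0.58, with no block set apart. Without 1 library at a time, mir-204, mir-211 and mir-449a passed in all 26 fits. In 6 of those fits mir-1298 passed as well, when dHC CTRL library 18, 24, 26 or 32 or dHC Swim library 6 or 20 was left out, with log2 differences from 0.84 to 0.92 and edgeR adjusted p-values from 0.0233 to 0.0489.

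Without the 5 dHC libraries with high mir-1298, the region difference of mir-449a over both stress groups was 0.78 on the log2 scale (SE 0.19, edgeR adjusted p = 0.00201). In CTRL mice alone mir-449a did not pass (0.62, SE 0.26, edgeR adjusted p = 0.111), and in Swim mice it did (0.945, SE 0.26, edgeR adjusted p = 0.0143). The differences of the other members turned or shrank: mir-204 to -0.015 (SE 0.10), mir-211 to 0.12 (SE 0.10), mir-1298 to -0.64 (SE 0.15) and mir-448 to -0.94 (SE 0.14). For these 4 the libraries were left out because of the values measured, so no p is given.

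In CTRL mice alone, 3 members were higher in dHC, mir-449a with a log2 difference of 0.57 (SE 0.21, edgeR adjusted p = 0.0444), mir-211 with 0.56 (SE 0.16, 0.0108) and mir-204 with 0.55 (SE 0.19, 0.0335), over 6 dHC and 8 vHC libraries. The values for mir-1298 and mir-448 were 0.97 (SE 0.44) and 0.84 (SE 0.43), with edgeR adjusted p-values of 0.123 and 0.161. Of all tested entries 22.5% passed in this comparison and 7.78% were higher in dHC. The 104 entries called were split into 36 higher and 68 lower, a split that was 66 and 64 under DESeq2 size factors. Without dHC CTRL library 14 none of the 5 members passed, with mir-204 at 0.46, mir-211 at 0.50 and mir-449a at 0.58. Without library 8 only mir-449a passed, with mir-204 at 0.39 and mir-211 at 0.42. Without vHC CTRL library 13 only mir-211 passed. The call of mir-449a was also lost without vHC CTRL library 17, 23, 25 or 31 or dHC CTRL library 18, with values over all such fits from 0.40 to 0.58 and edgeR adjusted p-values from 0.0522 to 0.207. DESeq2 did not call it either (0.62, DESeq2 adjusted p = 0.0575). Nor did edgeR with library size over the whole table (0.64, adjusted p = 0.0524), without the filter on low counts (0.57, 0.110) or without a covariate (0.61, 0.0867). Without library 26 all 5 members passed, with mir-1298 at 1.29 and mir-448 at 1.15.

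In Swim mice, 1 member was higher in dHC, mir-449a with a log2 difference of 0.89 (SE 0.22, edgeR adjusted p = 0.00342), over 6 and 6 libraries. The other values were 0.43 for mir-211 (SE 0.17), 0.38 for mir-204 (SE 0.20), 0.55 for mir-1298 (SE 0.47) and 0.08 for mir-448 (SE 0.46), with edgeR adjusted p-values from 0.0822 to 0.950. The share of all tested entries that passed was 20.3%, and 7.56% were higher in dHC. The lowest mir-204 and mir-211 levels of this group belonged to library 6. Without it mir-204 passed at 0.53 (edgeR adjusted p = 0.0264) and mir-211 at 0.56 (0.0118), and mir-211 also passed without dHC CTRL library 8, at 0.44. Whether the region difference itself differed between Swim and CTRL mice is the interaction test, which no member passed.

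**Figure D2:**
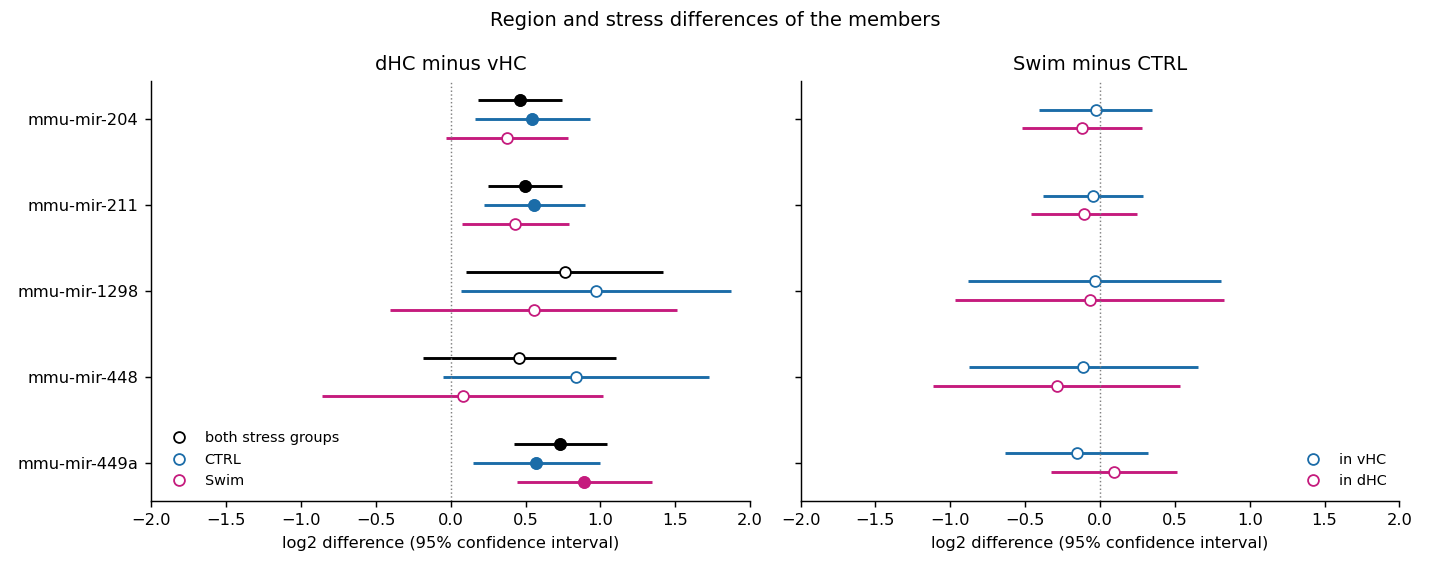
Log2 differences of each member with 95% confidence intervals, dHC minus vHC on the left (block in the model) and Swim minus CTRL on the right (2 surrogate variables in the model). Filled points had an adjusted p under 0.05. The intervals of mir-1298 and mir-448 are the widest in both panels, and every Swim minus CTRL interval covers 0.

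The swim was the condition the study set out to compare, and no member passed any test of it. In the joint test of the swim and its interaction with region, with 2 surrogate variables in the model, the smallest adjusted p of a member in edgeR was 0.933. Of all 463 entries 0 passed (0%), with 16 at an unadjusted p under 0.05, and DESeq2 also called 0 entries in this and each other swim comparison. Of the 5 members 0 had an unadjusted p under 0.05. In vHC the log2 differences (Swim minus CTRL, 6 against 8 libraries) were between -0.16 for mir-449a (SE 0.23) and -0.03 for mir-204 (SE 0.18). The 95% interval ran from -0.40 to 0.35 for mir-204 and from -0.38 to 0.29 for mir-211. Here 0% of all entries passed, with 34 at an unadjusted p under 0.05.

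In dHC the log2 differences were -0.12 for mir-204 (SE 0.20), -0.10 for mir-211 (SE 0.17), -0.07 for mir-1298 (SE 0.44), -0.29 for mir-448 (SE 0.40) and 0.09 for mir-449a (SE 0.20), over 6 and 6 libraries. The values of mir-448 and mir-1298 depended on the covariates: without surrogate variables they were -1.07 and -0.52, with block in their place -0.54 and -0.30, and with surrogate variables from an intercept-only null 0.03 and 0.09, all with edgeR adjusted p-values of 0.990 or more. In the main model the interval for mir-448 ran from -1.11 to 0.54, that is, ratios of Swim to CTRL from 0.463 to 1.45. In this comparison 0% of all entries passed, with 17 at an unadjusted p under 0.05. The interaction, which asks whether the swim difference was unequal in the regions, gave 0% of all entries, with 23 at an unadjusted p under 0.05. Its values for the members were between -0.18 for mir-448 (SE 0.55) and 0.25 for mir-449a (SE 0.31), with adjusted p-values of 0.954 or more in edgeR. Without surrogate variables it was -1.14 for mir-448 and -0.61 for mir-1298, and neither passed.

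Between processing blocks 2 members differed, mir-448 and mir-449a, with edgeR adjusted p-values of 0.0198 and 0.0350. Of all tested entries 53.1% passed this test. The median level of mir-448 in the 4 dHC libraries of each block was 260 CPM for block 1, against 43.2 for block 2 and 44.4 for block 3, and the vHC medians were 88.5, 74.8 and 73.7. Its log2 difference was -1.14 between blocks 2 and 1 (SE 0.38) and -1.12 between blocks 3 and 1 (SE 0.38). The difference of mir-449a between blocks 2 and 1 was 0.54 (SE 0.18), and between blocks 3 and 1 it was 0.19 (SE 0.18). For mir-204, mir-211 and mir-1298 the edgeR adjusted p-values for block were 0.275 or more. The difference of mir-448 between blocks 2 and 1 lost its call without dHC CTRL library 18 (-0.96) or 24 (-0.92), that between blocks 3 and 1 without library 26 (-0.84) or 32 (-0.87), and that of mir-449a without library 18 (0.38).

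After the group and block means were taken out, 6 of the 10 pairs of members had a Benjamini-Hochberg adjusted permutation p under 0.05 over the 26 libraries. They were the pairs among mir-204, mir-211, mir-1298 and mir-448. These p-values cannot be read as a test of covariation, because the dHC libraries fall into 2 sets seen in the same values. For that reason no r or rho between members over all 26 libraries is given. Within the 14 vHC libraries mir-204 and mir-211 were correlated (Pearson's r = 0.89, permutation p = 2e-05, adjusted p = 0.0002; Spearman's rho = 0.87, permutation p = 0.00014, adjusted p = 0.0014). Without the 2 libraries farthest from the median of mir-204, r was 0.86. These entries share reads, as given above. For mir-1298 and mir-448 in vHC, r was 0.28 (permutation p = 0.33, adjusted p = 0.66), and rho was 0.16 (permutation p = 0.60).

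Also in vHC, mir-1298 and mir-449a had r = -0.70 (permutation p = 0.0053, adjusted p = 0.0265) and rho = -0.61 (permutation p = 0.022, adjusted p = 0.11). Without 2 libraries r was -0.58. The rank correlation thus did not pass after adjustment. Within the 7 other dHC libraries, mir-204 and mir-211 had r = 0.96 and rho = 0.86. There mir-1298 and mir-448 had r = 0.75 and rho = 0.82. These 7 libraries were left by a choice made on the values of mir-1298. The correlations in them are therefore descriptions, and no p is given. The median r over all 106953 pairs of tested entries was 0.0069 in vHC, with 5% and 95% quantiles of -0.68 and 0.73. The r of -0.70 for mir-1298 and mir-449a was thus only just outside the range between these quantiles.

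**Figure D3:**
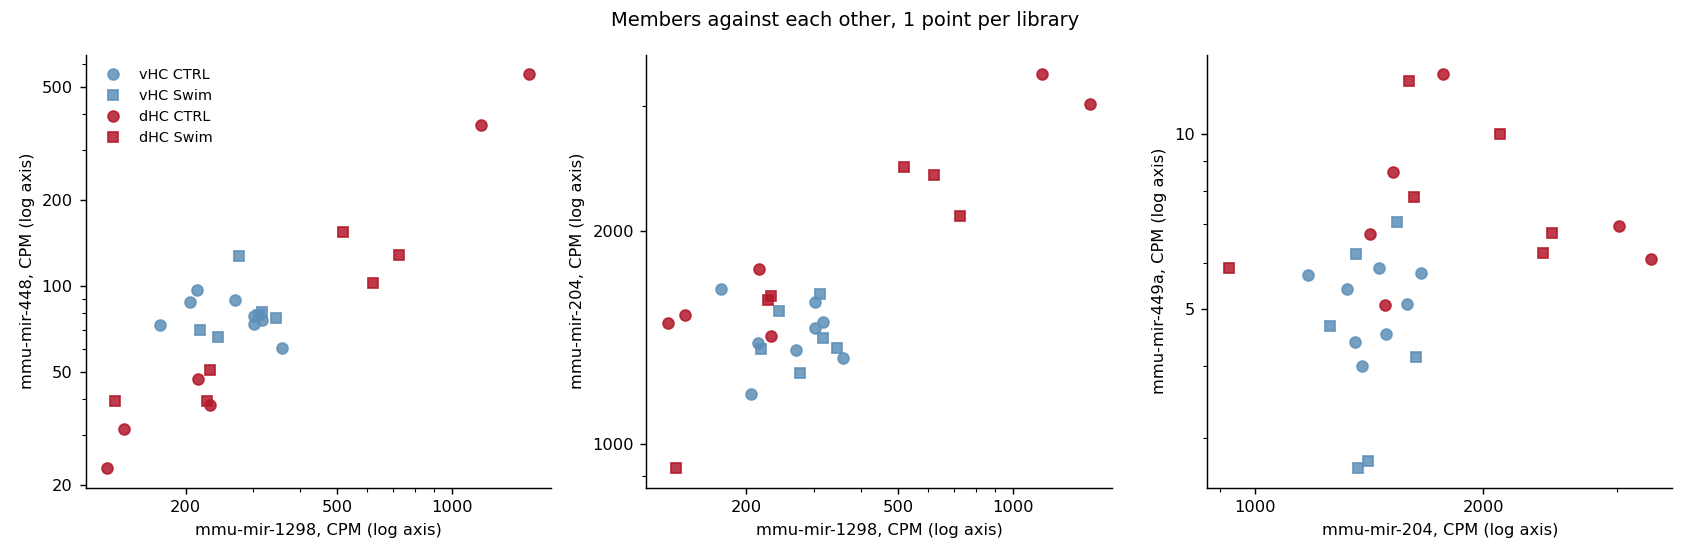
CPM of mir-448 and of mir-204 against mir-1298, and of mir-449a against mir-204, on log axes with 1 point per library, coloured by region, with circles for CTRL and squares for Swim. In the first 2 panels 5 dHC libraries form the upper right set, while vHC libraries form a compact cloud; in the third panel the 4 dHC libraries highest in mir-204 hold 6.10 to 6.96 CPM of mir-449a, inside the vHC range.

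The spread itself was compared between the regions with a test chosen after the values were seen. For each entry, the mean distance of log2 CPM from the group median was taken in dHC and in vHC and compared by a permutation test with 100000 resamples. It was 1.09 in dHC and 0.17 in vHC for mir-448 (permutation p = 0.0001, adjusted p = 0.0278 over all 463 entries), so 1 of the 5 members passed. For mir-1298 it was 0.999 and 0.25 (permutation p = 0.00038, adjusted p = 0.0586), and for mir-204 0.40 and 0.11 (permutation p = 0.00089, adjusted p = 0.103). For mir-211 the distances were 0.34 and 0.13 (adjusted permutation p = 0.605), and for mir-449a 0.30 and 0.27 (adjusted permutation p = 0.976). Of all entries 0.432% were wider in dHC by this test, 2 entries, of which the other was mir-374c. The medians over all entries were 0.28 and 0.26. The call of mir-448 was lost when block was taken out first (adjusted permutation p = 0.734).

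The other miRNAs of the Htr2c introns followed these members in part. The level of mir-1912 was between 8.59 and 41.8 CPM in the 5 libraries and between 0 and 3.23 in the other 7 dHC libraries, with 1.63 to 5.31 in vHC. For mir-1264 the ranges were 38.3 to 227, 14.3 to 35.7 and 34.2 to 106. For neither did the dHC ranges overlap, but for mir-1264 they almost met. Only dHC libraries 8 and 14 held more mir-1264 than every vHC library, against 5 dHC libraries for mir-1912 and mir-1298 and 4 for mir-448. The dHC ranges of the fifth miRNA of the gene, mir-764, did overlap: it lay between 0.781 and 9.45 CPM in the 5 libraries and between 2.14 and 5.74 in the other 7, with 4.67 to 12.4 in vHC. Between regions, mir-1912 was higher in dHC with a log2 difference of 1.72 (SE 0.43, edgeR adjusted p = 0.00154), mir-764 was lower with -1.01 (SE 0.23, 0.000763) and mir-1264 did not pass (-0.30, SE 0.27, 0.388). The median of mir-1912 was 17.1 CPM in the 5 libraries, 2.55 in the other 7 dHC libraries and 2.75 in vHC. Its counts in vHC were 3 to 18 per library, and those of mir-764 were 1 to 42 over all libraries, so both calls rest on low counts. Of the 5 miRNAs of the gene, then, 1 was called higher and 1 lower, with a median difference of 0.46, against 36.1% of all entries called and a median of 0.0029.

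**Figure D4:**
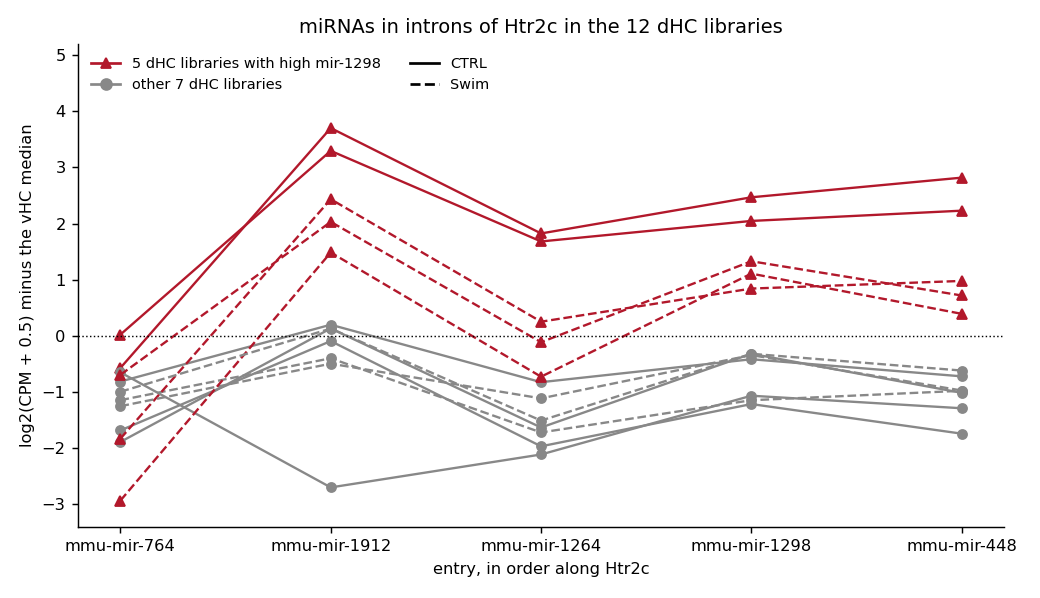
Log2 of CPM plus 0.5 of the 5 miRNAs in Htr2c introns in each dHC library, minus the vHC median, in their order along the gene. Red lines with triangles are the 5 libraries with high mir-1298 and grey lines the other 7, and solid lines are CTRL and dashed lines Swim: the red lines lie above the grey ones for mir-1912, mir-1264, mir-1298 and mir-448 and are mixed with them for mir-764.

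Outside the members, the entries most like each of them over the 26 libraries were found by Spearman's rho of the same residuals, as a description. For mir-448 they were mir-1912 (0.91), mir-1264 (0.84) and mir-34b (0.62), and for mir-1298 mir-1912 (0.80), mir-1264 (0.80) and mir-670 (0.52). For mir-204 they were mir-1264 (0.79), mir-1912 (0.78) and mir-34b (0.71), and for mir-211 mir-1264 (0.81), mir-34b (0.80) and mir-1912 (0.78). The nearest to mir-449a were mir-30b (0.63), mir-669l (0.59) and mir-194-1 (0.56). The 4 members that shared high libraries had mir-1912 and mir-1264 in common, while mir-449a had neither. Over the 21 libraries left without those 5, rho with mir-1912 was 0.09 for mir-1298, 0.25 for mir-204, 0.28 for mir-211 and 0.51 for mir-448. With mir-34b it was 0.78 for mir-211 and 0.65 for mir-204, and for mir-449a with mir-30b it was 0.62.

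Of the tested relatives of mir-449a, the miRNAs named mir-34, 2 were also higher in dHC. The log2 difference was 0.82 for mir-34c (SE 0.15, edgeR adjusted p = 8.83e-05) and 0.60 for mir-34b (SE 0.11, 9.25e-05), so 3 of the 4 tested members of the family passed with mir-449a, where 17.5% of all entries were higher in dHC. For mir-34a it was 0.20 (SE 0.12, edgeR adjusted p = 0.207). The median of the 4 was 0.66. The counts of mir-34b and mir-34c were divided between these entries in 17 libraries, so their separate levels are uncertain and their calls are not fully independent. The neighbours of mir-449a in the Cdc20b locus were at or near 0: mir-449b summed to 2.97 expected counts and mir-449c to 10 over all 26 libraries, where 3 counts would be 0.0457 CPM.

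Marker miRNAs of other cell types also differed between regions, and their part in the results of the members was not tested. All 5 miRNAs of the mir-200 family, which marks epithelia and some neurons, were lower in dHC, with a median log2 difference of -1.07, opposite to the members. The summed level of the family was between 402 and 705 CPM in vHC and between 128 and 328 in dHC. The 3 oligodendrocyte entries (mir-219a-1, mir-219a-2 and mir-338) were higher in dHC, with a median of 0.58. Of the 4 erythroid entries 2 were lower, mir-486a and mir-486b, with a median of -0.31 over the list. Of the 8 neuronal entries 2 were higher (mir-138-1 and mir-138-2) and 2 lower (mir-128-1 and mir-128-2), with a median of 0.18. Entries of the same name had nearly equal differences, 0.34 and 0.33 for mir-138, -0.31 and -0.29 for mir-128 and -0.67 and -0.66 for mir-486. Such calls and the list medians are therefore not of independent entries. The endothelial and mural list (3 tested, median -0.06) and the microglial and immune list (4 tested, median 0.06) had 0 called, against the 36.1% of all entries. The table holds small RNAs alone, so the mRNAs that define choroid plexus or ciliated cells were not analysed here, and the name of the 5 members was checked against their host genes and each other only.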

How the data were processed

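Small RNA was extracted with Trizol and made into libraries with the Nextflex v3 kit. Adapter trimming by the authors used cutadapt; they then merged reads identical in sequence and molecular tag and assigned them with Sports 1.0; GRCm38 is named in the submitters' processing notes. The deposited values are expected counts per entry, without normalization, and 29.5% were not whole. They were rounded before testing. Columns matched to no sample numbered 0.

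In R 4.3.3, entries were kept by filterByExpr (minimum count 10, minimum total 15), which left 463, all 5 members among them. Testing was with edgeR 4.0.16 (quasi-likelihood, TMM, threshold 0.05 after Benjamini-Hochberg adjustment over 463 entries). Stress fits held region and 2 surrogate variables (sva 3.50.0), as in the study's methods; region and block fits held the processing block, because the second surrogate variable had 91.1% of its variance between regions. The fits were tested on simulated data. Log2 CPM used a pseudocount of 0.5. DESeq2 1.42.0, other scalings, filters and covariates, and leaving out each library were alternatives; permutations used numpy 2.4.6, figures matplotlib 3.10.9.

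The members and lists were chosen with earlier results of these data known. The members were always named, with the 3 entries nearest to each and at most 4 miRNAs per marker list. The permutation test planned for members under the filter on low counts gave no value, since none was under it. Intervals do not cover errors of read assignment.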

Additional observations from a re-analysis of the deposited data

Results flagged for a closer look

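In vHC Swim, library 5 stood apart from the rest of its group for mir-448, at 127 CPM, where the next highest of the 6 libraries held 80.9. Its gap to the nearest library was 0.695 of the range of the group on the log2 scale. Of the 20 member and group combinations examined this was the 1 that passed Dixon's 95% limit, and chance flags about 1 in 20.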

How the results depend on the processing

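The stress calls did not change, although values moved with the covariates (mir-448 in dHC between -1.07 and 0.03): 0 members passed under any of 8 alternatives or without any 1 of the 26 libraries, for the joint test, either region or the interaction. No paired analysis was possible because the groups share no library number, and the labels do not say that consecutive dHC and vHC numbers are of the same mouse. For region over both stress groups, 3 members passed, against 5 without the filter on low counts, 0 with 2 surrogate variables in place of block, and 3 to 4 without 1 library. With those surrogate variables, of which the second followed region, 0 members passed in CTRL or in Swim as well, and mir-449a had log2 differences of -0.32, -0.44 and -0.19 over both groups, in CTRL and in Swim. With surrogate variables from an intercept-only null, mir-448 was called lower, at -0.35 over both groups and -0.41 in CTRL, and 2 members passed in Swim. In CTRL, 3 members passed, against 1 without a covariate and 0 to 5 without 1 library. In Swim, 1 member passed, against 2 without the filter and 1 to 3 without 1 library. Block called 2 members, against 1 with library size over the whole table and 1 to 2 without 1 library. The cause of these changes was not tested. Over all entries, the region calls were 167, 104 and 94 (both groups, CTRL, Swim), against 100, 67 and 56 without a covariate and 85, 78 and 59 with 2 surrogate variables.

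Leaving out libraries by mir-1298, permuting region, the spread test and the 7 other dHC libraries were chosen after seeing the data. Without the 5 dHC libraries with high mir-1298, the log2 difference over both groups was -0.015 for mir-204, -0.64 for mir-1298 and -0.94 for mir-448. It was -0.71 for mir-1298 and -0.97 for mir-448 in CTRL and -0.91 for mir-448 in Swim. The call of mir-449a in CTRL was lost, at 0.62 (edgeR adjusted p = 0.111). Permuting region within stress and block called 3 members. Over 26 libraries 6 pairs had an adjusted permutation p under 0.05, which the 2 sets of dHC libraries keep from being a test of covariation. Within vHC 2 pairs did, of which 1 (mir-204 with mir-211) was among the 6. There r was -0.24 for mir-204 with mir-1298, -0.30 for mir-204 with mir-448, -0.48 for mir-211 with mir-1298 and -0.12 for mir-211 with mir-448. Within the 7 other dHC libraries, left by a choice on mir-1298, r for mir-204 with mir-211 was 0.96, as a description. After block was taken out, the difference in spread of mir-448 was 0.58 on the log2 scale, as a description. Depth limits mir-449a most, at 3 to 55 counts per library.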
